A study of Mus musculus with 15 samples.

Results

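The genes described here encode the enzymes that attach ubiquitin to proteins and remove it, and their transcripts were examined for bound Argonaute 2 (Ago2) and Sfpq. They were taken by symbol (Ube2, Ube3, Fbxo and Fbxw families, Rnf, Cul and Usp followed by a digit, and Rlim) if they had a peak in the list of Sfpq, Ago2-let-7a or control Ago2 peaks. This gave 109 genes of the 6335 with a peak in those lists. They comprised 20 Ube2, 2 Ube3, 39 Rnf, 7 Cul, 13 Fbxo, 3 Fbxw and 24 Usp genes together with Rlim. The rule reads the name alone. Ube2v2 lacks a catalytic cysteine and Usp6nl is a GTPase-activating protein, and both were counted because their names fit.

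The peaks came from P19 cells, mouse embryonal carcinoma cells often taken as a stem cell model, after HITS-CLIP, which crosslinks proteins to RNA by UV light and sequences the RNA that is pulled down with them. There were 15 libraries in 5 groups, each with 3 replicates, namely Ago2 in cells given a let-7a mimic, Ago2 in cells given siRNA against Sfpq (siSfpq), Ago2 in cells given siSfpq and the mimic, Sfpq in siSfpq cells and Sfpq in control cells. The control Ago2 list is headed as cells with control mimic and control siRNA, while the study's methods cite earlier HITS-CLIP of P19 cells for it, and its libraries were not analysed here. A list of peaks gives no level of the Sfpq transcript by which the knockdown could be checked. The authors merged replicates before calling peaks, so each peak carries a single value, and replicate spread and library depth are both unknown. Each share below therefore has a 95% Wilson interval that covers counting error only. Peaks of one gene share its abundance and length, which were not measured. Of 10 stem cell genes checked against the label, 8 had a peak in the 3 lists. Lin28a was listed with 23 Sfpq peaks, and Zfp42 was in no list.

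Ubiquitin is passed from an activating enzyme to a conjugating enzyme (E2, the Ube2 genes) and then, with a ligase (E3), to a substrate. HECT ligases such as Ube3a carry ubiquitin themselves, RING ligases such as the Rnf proteins and Rlim bring the loaded E2 to the substrate, and cullins hold a RING subunit and, in the Cul1 complexes, an F-box protein that picks the substrate. Deubiquitinases of the Usp family reverse the reaction. Rlim (Rnf12) is the X-linked ligase that degrades Rex1 and takes part in imprinted X inactivation in mouse embryos. Ago2 carries miRNAs to their targets, mostly in 3′UTRs, where pairing starts at the seed, bases 2 to 8 of the miRNA.

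The sequences below are the let-7a strand of the transfected mimic, whose seed is in capitals, and the only match to it in a 3′UTR Ago2-let-7a peak of a ubiquitin gene. In the site, capitals mark the 6 nt complementary to bases 2 to 7, and the base before them extends the match to 7 nt.
let-7a-5p: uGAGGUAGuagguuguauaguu
Rnf20 site (chr4:49656021-49656046, plus strand, mm10): taatcaccaggcctcTACCTCctctc
The site lies in an Ago2-let-7a peak with a score of 14, the highest of the 18 such 3′UTR peaks. Rnf20 is a RING ligase that ubiquitinates histone H2B. The mature sequence and the genomic bases are from RefSeq, build GRCm38.p6, of which mm10 is the common name.

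The Sfpq list covered most of these genes. It held 528 peaks on 96 of the 109 genes, with 56 Ago2-let-7a peaks on 44 genes and 12 control Ago2 peaks on 10 genes in the other lists. The Ago2-let-7a list holds peaks enriched in cells with let-7a over control cells, by dCLIP score. It is therefore not a list of all Ago2 peaks in let-7a cells. Sfpq peaks alone placed 61 genes in the set, 56.0% (interval 46.6 to 64.9%), compared with 51.2% of all 6335 genes. Peaks in all 3 lists were found on 5 genes, and 3′UTR peaks in all 3 on 2, Rlim and Rnf6. Sfpq peaks are given here with their dCLIP score, a measure of enrichment in control over siSfpq cells, and the lowest score listed was 8. The median score of the 528 peaks was 10, and that of the whole list of 29715 was 11.

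A few transcripts held many of the Sfpq peaks. Ube2k, an E2 that builds the chains recognised by the proteasome, had 51, Usp9x, a deubiquitinase encoded on the X chromosome, had 37, Ube2b, an E2 of DNA damage tolerance and spermatogenesis, had 35, and Rlim had 33. Together these held 156 of 528 peaks (29.5%, interval 25.8 to 33.6%). Their locations differed. In Ube2k 31 peaks were intronic and 16 lay in the 3′UTR, in Ube2b 32 were intronic and 3 lay in the 3′UTR, in Usp9x 27 were exonic and 2 lay in the 3′UTR, and in Rlim 21 lay in the 3′UTR and 7 in exons. The other 12 genes with 10 or more peaks included Rnf44, Ube3a, Usp34, Cul4b, Rnf145, Rnf2 and Usp31. The plot of Sfpq peaks by gene shows the 9 genes with 14 or more. Of the 96 genes with an Sfpq peak, 34 had a single one (35.4%, interval 26.6 to 45.4%), as had 35.4% of the 4950 genes of the whole list.

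**Figure D1:**
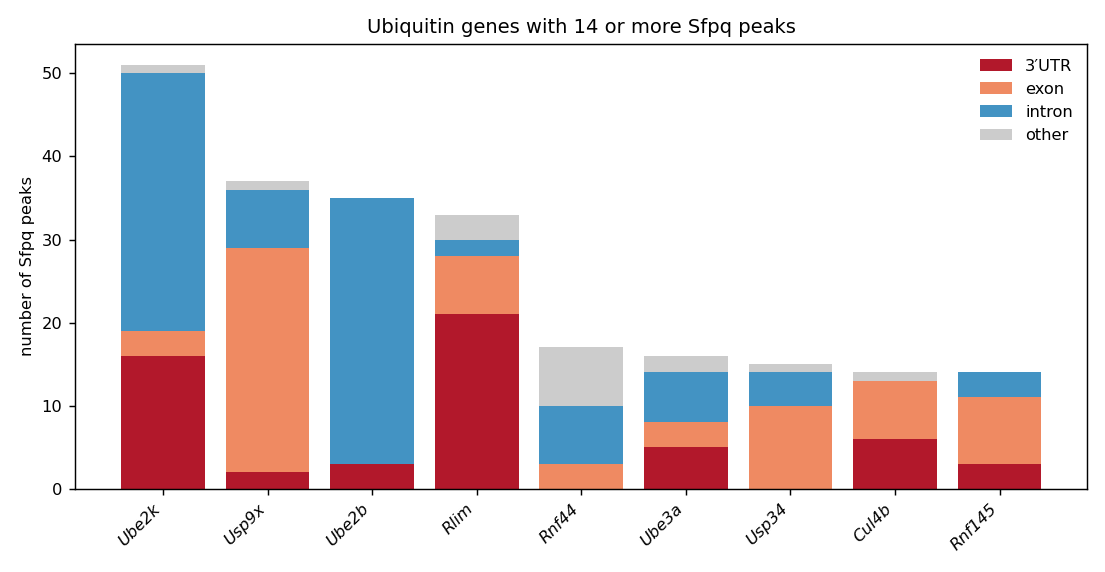
Number of Sfpq peaks (vertical axis) on each of the 9 ubiquitin genes with 14 or more, coloured by annotated location. Ube2k has 51 peaks, mostly intronic, most of the 37 peaks of Usp9x are exonic, and 21 of the 33 peaks of Rlim lie in the 3′UTR.

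By location, Sfpq peaks on ubiquitin genes had the 3′UTR and exon shares of the list within counting error and a higher intron share. Of the 528 peaks, 162 lay in 3′UTRs (30.7%, interval 26.9 to 34.7%), compared with 31.1% of the 25667 Sfpq peaks annotated within or next to genes. Locations are the labels of the lists, and 19 peaks with another label lay within the longest annotated 3′UTR of their gene on its strand, 7 of them on Rnf44 and 4 on Rnf41. Introns held 197 (37.3%, interval 33.3 to 41.5%), compared with 32.2%, and Ube2b and Ube2k held 63 of them, and exons 129 (24.4%, interval 21 to 28.3%), compared with 25.5%. All 162 3′UTR peaks were on the strand of their gene, as were 516 of the 528. A 3′UTR Sfpq peak was present on 54 of the 109 genes (49.5%, interval 40.3 to 58.8%) and on 35.1% of all genes with a peak in the 3 lists.

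Among conjugating enzymes, the 16 Ube2 genes with Sfpq peaks held 151, of which 96 were intronic and 42 lay in 3′UTRs. Ube2b had the highest score of the family, 58, in an intron. The Ube2d enzymes, which serve many RING ligases, had 9 peaks for Ube2d2a and 7 for Ube2d3, with 4 in each 3′UTR. Among HECT ligases, Ube3a, the gene of Angelman syndrome, had 16 Sfpq peaks with 5 in the 3′UTR, and Ube3c had 1.

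The RING ligases named Rnf held 122 Sfpq peaks on 35 genes. Rnf44 had 17, none of them labelled 3′UTR. Its 7 peaks labelled non-coding, the one with its highest score of 62 included, lay within its annotated 3′UTR. Rnf145, a ligase of the endoplasmic reticulum, had 14, and Rnf2, a catalytic subunit of a Polycomb repressive complex, had 12. Rnf4, which recognises SUMO chains, also had 12. All 7 cullins of the set had Sfpq peaks, 44 in all, with 23 in exons. Cul4b had 14 with 6 in the 3′UTR, Cul2, the cullin of the von Hippel-Lindau complex, had 11, and Cul3 had 10, of which 1 labelled as transcript end lay in its annotated 3′UTR.

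The F-box genes had fewer Sfpq peaks. The 13 Fbxo genes held 20 on 10 genes, led by Fbxo28, Fbxo3 and Fbxo30 with 4 each. Of the 3 Fbxw genes, Fbxw11, a β-TrCP protein, had 8 with 5 in the 3′UTR, Fbxw8 had 1, and Fbxw7, which targets Myc and cyclin E, had none. The deubiquitinases held 132 on 23 of 24 genes. Usp34, a large cytoplasmic enzyme, had 15 with 10 in exons. Usp31 had 12 with 11 in the 3′UTR, and Usp7, which stabilises Mdm2, had 8 with 4 in the 3′UTR.

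**Figure D2:**
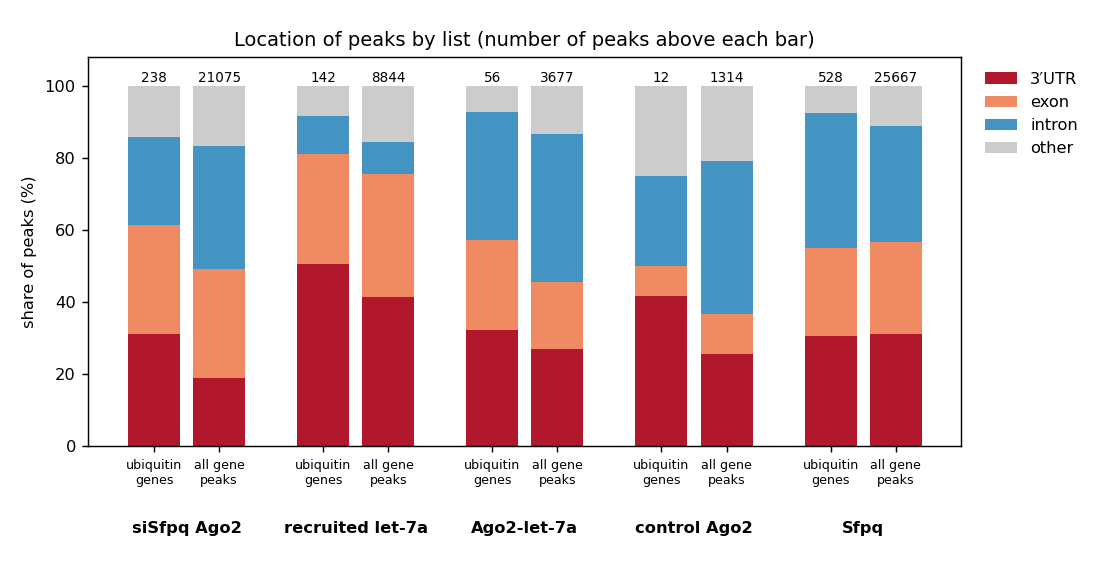
Share of peaks (vertical axis, percent) in each annotated location for ubiquitin genes (left bar of each pair) and for all peaks of that list annotated within or next to a gene (right bar). Numbers above the bars count the peaks. The 3′UTR share is 31.1% on ubiquitin genes and 18.9% in the siSfpq Ago2 list over all genes, which were not chosen by a peak in another list, and 30.7% and 31.1% in the Sfpq list.

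The 3′UTR peaks of Sfpq were unevenly spread. Rlim with 21, Ube2k with 16 and Usp31 with 11 held 48 of the 162 (29.6%, interval 23.1 to 37.1%). Among the 2221 genes with a 3′UTR Sfpq peak, Rlim ranked 27 from the top by number of peaks, Ube2k 52 and Usp31 119. Counted per kilobase of the longest annotated 3′UTR, Ube2k had 3.96 peaks, Rlim 3.94 and Usp31 1.78. The median over the 54 ubiquitin genes was 0.887 per kilobase, below the median of 1.31 over the 2217 genes with an annotated length, whose quartiles were 0.646 and 2.49. The highest density of all genes was 9.09 per kilobase.

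The words CUGU and CUGA came from the study's motif search in these same Sfpq peaks, as did NUGUA. A higher density in the peaks was thus built into the choice of words, and the values are description only. CUGU and CUGA were denser in the 3′UTR peaks than beside them. The 162 3′UTR peaks held 1.59 such words per 100 nt, and windows of equal length moved by 500 nt toward higher coordinates held 1.09. Over all 7985 3′UTR Sfpq peaks the densities were 1.58 in peaks and 1.25 in the moved windows. NUGUA had 0.868 per 100 nt in the ubiquitin gene peaks and 0.572 in the moved windows, and over all 3′UTR Sfpq peaks 0.868 and 0.596. At least 1 CUGU or CUGA was present in 117 of the 162 peaks (72.2%) and in 67.7% of all 3′UTR Sfpq peaks. NUGUA and CUGU can share bases, and both were read on the transcribed strand only. The Sfpq peak of highest score on a ubiquitin gene was 30 nt long, lay in the Rlim 3′UTR and had a score of 88. It is shown whole, with CUGU in capitals and T for U.
Rlim Sfpq peak (chrX:103961565-103961594, minus strand, mm10): tgtatttgtgaacagctaCTGTgacatgaa

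Rlim had peaks in all 5 full lists. Its 3′UTR is a single block of 5328 nt, and the 21 Sfpq peaks covered 3270 nt of it (61.4%). Its 33 Sfpq peaks scored between 9 and 88 with a median of 18. The control Ago2 list had 3 Rlim peaks, all in the 3′UTR, with 14, 16 and 20 reads, and the last was the highest count of the 12 control Ago2 peaks on ubiquitin genes. The Ago2-let-7a list had 2, one in an exon with a score of 20 and one in the 3′UTR with a score of 12. Both of them overlapped an Sfpq peak, and neither was among the dismissed peaks described below.

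In siSfpq cells Ago2 was listed over much of the same 3′UTR. The siSfpq Ago2 list held 13 Rlim peaks with 37 to 219 reads (median 106), and 8 of them covered 3193 nt of the 3′UTR (59.9%). Read counts of the siSfpq and control lists were not scaled to each other, so they are given side by side only. The siSfpq Ago2 list is also much longer, with 29734 peaks against 2065 in the control Ago2 list. Numbers of peaks and lengths covered are therefore not comparable between the 2 lists either. The recruited let-7a list, of Ago2 peaks that were enriched in cells with siSfpq and let-7a over cells with let-7a alone, held 26 Rlim peaks with 17 in the 3′UTR. Of these 17, 14 overlapped an Sfpq peak on the same strand, as did 7 of the 8 siSfpq Ago2 peaks. Over the whole lists 46.4% of 3′UTR recruited peaks and 47.5% of 3′UTR siSfpq Ago2 peaks did so. Sfpq peaks covered 61.4% of the Rlim 3′UTR, and the part of this coverage in the overlap was not tested. From the other side, 10 of the 21 3′UTR Sfpq peaks overlapped a recruited peak and 12 a siSfpq Ago2 peak. Among all 3′UTR Sfpq peaks these shares were 20.7% and 32.5%.

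**Figure D3:**
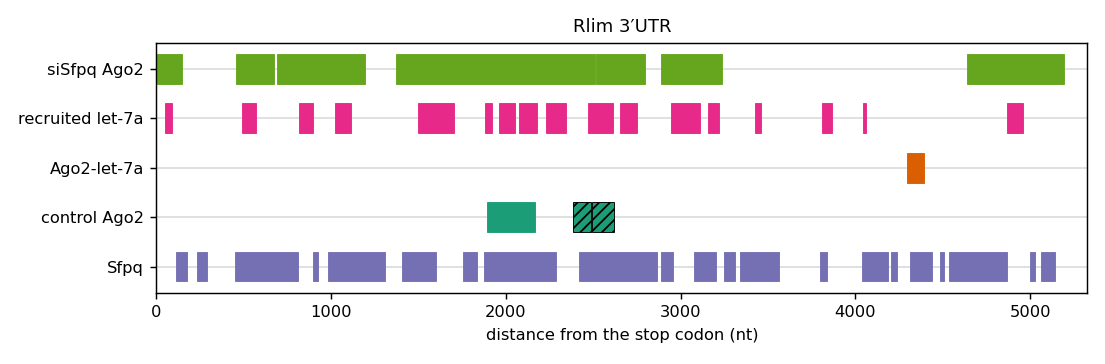
Peaks along the 3′UTR of Rlim by list, with the distance from the stop codon in nt on the horizontal axis. Each bar is a peak, and hatched bars with black edges are dismissed peaks. The 21 Sfpq peaks and the 8 siSfpq Ago2 peaks cover 3270 and 3193 nt of it, and both dismissed control Ago2 peaks lie inside that range.

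Seed matches in the Ago2 peaks of Rlim are shown for miR-92a and miR-17, members of a miRNA cluster active in stem cells, because they lie in its peaks of the control and siSfpq lists. They were picked from matches to 6 miRNAs, and its siSfpq Ago2 peaks also held 6 nt matches to let-7a, miR-19b, miR-302b and miR-294. Those to miR-302b and miR-294 were the same sites and overlapped miR-17 matches. The miR-17 site shown thus also holds the 6 nt match to miR-302b and miR-294. Capitals mark the seed in each miRNA and the 6 nt match in each site.
miR-92a-3p: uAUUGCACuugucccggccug
Rlim site (chrX:103959892-103959917, minus strand, mm10): tgtaggtgtcaggtgTGCAATgaaga
miR-17-5p: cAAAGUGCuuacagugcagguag
Rlim site (chrX:103960934-103960959, minus strand, mm10): atatctgtgaacacgCACTTTattgt
Both sites extend to 7 nt through the base before the capitals, and the second is followed by an A. The miR-92a site was in the siSfpq Ago2 peak with 127 reads and in the dismissed control Ago2 peak with 14 reads. The miR-17 site was in the siSfpq Ago2 peak with 219 reads. Such matches were not rare beside the peaks. In the siSfpq list a 6 nt match to miR-92a was found in 5.21% of all 3′UTR peaks with a strand and in 4.53% of windows moved by 200 nt, and one to miR-17 in 12% of peaks and 10.3% of moved windows. Of the 73 3′UTR siSfpq Ago2 peaks on ubiquitin genes, 10 held the miR-17 match, as did 10 of the moved windows, and 5 held the miR-92a match, as did 1 of the moved windows.

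Dismissed peaks are those the authors called reduced on Sfpq knockdown. An Ago2-let-7a peak also had to be unchanged by siSfpq in cells that received no let-7a mimic. All other peaks of a list are called kept, so kept Ago2-let-7a peaks can include reduced ones that failed this second condition. On ubiquitin genes 45 of 56 Ago2-let-7a peaks were dismissed (80.4%, interval 68.2 to 88.7%), which was the share of the whole list, 80.2%. In 3′UTRs 11 of 18 were dismissed (61.1%, interval 38.6 to 79.7%), against 72.0% of the list. All 20 intronic peaks were dismissed (interval from 83.9%), against 94.2% of the intronic peaks of the list, and 11 of 14 exonic peaks (78.6%, interval 52.4 to 92.4%), against 76.8%. Within the ubiquitin genes the dismissed share was 38.9 percentage points lower in 3′UTRs than in introns (Newcombe interval of the difference −61.4 to −14.3). The same difference over the whole list was −22.2 points (−25.3 to −19.2).

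The dismissed 3′UTR peaks lay on 10 genes. Rnf145 had 2, both classed as close to Sfpq (under 500 nt) by the authors, with scores of 9 and 10. Usp32 had 1 with a score of 13, also in the close class. The far class (500 to 7000 nt) held those of Rnf157, Ube2g1 and Usp19, and the very far class (over 7000 nt) those of Fbxo46, Rnf20, Rnf24 and Usp40, with scores of 8 to 14 among these 7. The 7 kept 3′UTR peaks, with scores of 9 to 12, included those of Rlim, Rnf6, Rnf220, Ube2o, Usp31 and Fbxw7. Scores of dismissed and kept peaks overlapped. None of the 18 3′UTR peaks reached a score of 15 (interval 0 to 17.6%), against 24.1% of the 987 3′UTR peaks of the list. The highest Ago2-let-7a score on a ubiquitin gene was 37, at a dismissed intronic peak of Rnf220, a ligase of β-catenin signalling and neural patterning.

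By family, 19 of 23 Rnf peaks of the Ago2-let-7a list were dismissed (82.6%, interval 62.9 to 93%), 9 of 10 Ube2 peaks (interval 59.6 to 98.2%), 10 of 12 Usp peaks (83.3%, interval 55.2 to 95.3%), 6 of 6 Fbxo peaks (interval from 61%) and 1 of 2 Cul peaks. The intervals overlap throughout, and neither Rlim peak nor the Fbxw7 peak was dismissed. The 3′UTR peaks differed from the intronic peaks in sequence as well, since 1 of 18 peaks in 3′UTRs and 10 of 20 in introns were at least 50% repeat-masked (lower case in the reference). Over the whole list these shares were 12.9% in 3′UTRs and 20.9% in introns.

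**Figure D4:**
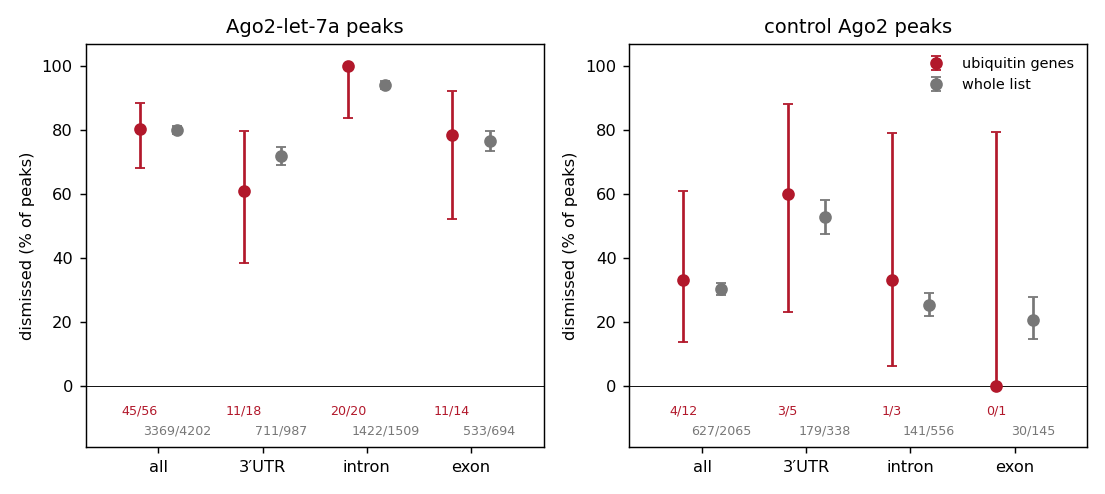
Share of Ago2-let-7a peaks (left panel) and control Ago2 peaks (right panel) that were dismissed, in percent, by location, for ubiquitin genes (red) and for the whole list (grey). Bars are 95% Wilson intervals, and the fractions count dismissed over all peaks. The red intervals cover the grey values in all locations of both panels.

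Ago2-let-7a peaks with a listed Sfpq peak nearby were dismissed less often on these genes. Of the 15 within 500 nt of a listed Sfpq peak 7 were dismissed (46.7%, interval 24.8 to 69.9%), and of the 41 farther away 38 were (92.7%, interval 80.6 to 97.5%). The difference was −46.0 percentage points (Newcombe interval −68.4 to −19.8), and over the whole list it was −23.2 points (−26.1 to −20.4). Kept peaks can include reduced ones that also changed with siSfpq without let-7a, and their part in this difference was not tested. Location moved with the difference. In 3′UTRs the shares were 4 of 9 and 7 of 9, a difference of −33.3 points whose interval reached 10.2, and all 3 near and all 17 farther intronic peaks were dismissed. The authors' distance classes and the listed Sfpq peaks did not match in full. Of the 16 peaks classed as close, 7 had a listed Sfpq peak within 500 nt, 3 had the nearest one at 500 to 7000 nt and 6 at over 7000 nt. In the whole list 72.7% of the close class had one within 500 nt.

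Few control Ago2 peaks lay on ubiquitin genes, and 4 of the 12 were dismissed (33.3%, interval 13.8 to 60.9%), against 30.4% of the list. All 4 were in the close class. They were 2 peaks in the Rlim 3′UTR, 1 in the Rnf6 3′UTR with 15 reads and 1 of 24 nt in an intron of Fbxw7 with 10 reads, whose nearest listed Sfpq peak was 285673 nt away. Rnf6 is a RING ligase of the same subfamily as Rlim. The kept peaks included the third Rlim peak and 1 in the 3′UTR of Rnf11 with 10 reads. In 3′UTRs 3 of 5 were dismissed (interval 23.1 to 88.2%), against 53.0% of the list, in introns 1 of 3 (interval 6.15 to 79.2%), against 25.4%, and the single exonic peak, of Usp9x, was kept, where 20.7% of the list were dismissed. The count rests in part on Rlim, without which 2 of 9 were dismissed (22.2%). All 4 dismissed peaks overlapped a peak of the siSfpq Ago2 list, as did 6 of the 8 kept ones. In the whole list 505 of 627 dismissed (80.5%) and 1079 of 1438 kept control Ago2 peaks did so. Within 500 nt of a listed Sfpq peak lay 9 of the 12 (interval 46.8 to 91.1%), against 32.1% of the 1314 control Ago2 peaks with a gene symbol. All 9 were on genes with a listed Sfpq peak, which held 10 of the 12, and 57.3% of the 726 control Ago2 peaks on all such genes were that near. Rlim held 3 of the 9.

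After Sfpq knockdown the listed Ago2 peaks of ubiquitin genes lay in 3′UTRs in a larger share than in the list. The siSfpq Ago2 list held 238 peaks on 78 of the genes, of which 74 lay in 3′UTRs (31.1%, interval 25.6 to 37.2%). Over the 21075 peaks of the list annotated within or next to genes the share was 18.9%, but the ubiquitin genes had to have a peak in the Sfpq, Ago2-let-7a or control Ago2 list, and the 14829 siSfpq Ago2 peaks on all 6335 such genes had a share of 23.1%. On genes with a listed Sfpq peak the share was 25.2% of 12572 peaks, and on such ubiquitin genes 72 of 222 (32.4%, interval 26.6 to 38.8%). Without Rlim the share on ubiquitin genes was 29.3% (interval 23.8 to 35.6%), and this interval includes the 25.2%. The recruited let-7a list held 142 peaks on 52 genes, with 72 in 3′UTRs (50.7%, interval 42.6 to 58.8%), against 42.7% of the 8072 recruited peaks on the 6335 genes, a value within the interval.

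By role, the Rnf ligases held 77 siSfpq Ago2 peaks on 25 genes (20 in 3′UTRs), the deubiquitinases 64 on 19 genes (12), the Ube2 enzymes 39 on 15 genes (14), the Fbxo proteins 17 on 7 genes (11) and the cullins 12 on 6 genes (5). Rlim had the most, and Rnf145 and Usp9x had 9 each. The recruited let-7a list held 47 peaks on 22 Rnf genes, 29 on 11 Usp genes, 20 on 7 Ube2 genes and 1 on a cullin. All 9 recruited and all 9 siSfpq Ago2 peaks of Usp9x were exonic, as were most of its Sfpq peaks. The HECT ligases differed from each other in the recruited list, since Ube3c had 4 peaks, 3 of them in the 3′UTR, and Ube3a had 1, although Ube3a held the more Sfpq peaks. Fbxo45, the substrate receptor of an atypical ligase of neurons, and Fbxo28 had 3 siSfpq Ago2 peaks each, all in the 3′UTR, with up to 28 reads in Fbxo45 and 52 in Fbxo28.

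Most 3′UTR peaks of both lists were near Sfpq. Within 500 nt of a listed Sfpq peak lay 61 of the 74 3′UTR siSfpq Ago2 peaks (82.4%, interval 72.2 to 89.4%), against 74.3% of the 3428 on the 6335 genes, a value within the interval. Of the 72 3′UTR recruited let-7a peaks 57 did (79.2%, interval 68.4 to 86.9%), against 80.1% of the 3445 on the 6335 genes, and without Rlim 40 of 55 (72.7%). Of the 109 genes 96 have a listed Sfpq peak, which the choice of the genes used. Of the 54 ubiquitin genes with a 3′UTR Sfpq peak, 29 had a 3′UTR siSfpq Ago2 peak (53.7%, interval 40.6 to 66.3%), and of the 55 without one 5 did (9.09%, interval 3.95 to 19.6%). For the recruited list these counts were 24 of 54 (44.4%) and 7 of 55 (12.7%). Over all 6335 genes a 3′UTR siSfpq Ago2 peak was found on 61.5% of genes with and 11.9% of genes without a 3′UTR Sfpq peak. Peak calling also depends on how abundant a transcript is, which was not measured, and its part in the overlap was not tested.

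Of the 10 genes with a dismissed 3′UTR Ago2-let-7a peak, 4 also had a recruited 3′UTR peak (40.0%, interval 16.8 to 68.7%), and of the 6 with kept ones alone 5 did (83.3%, interval 43.6 to 97.0%). Over all genes the shares were 50.7% and 75.5%. The 4 genes included Rnf145, Usp32 and Rnf20. No dismissed Ago2-let-7a peak of a ubiquitin gene overlapped a recruited peak itself (0 of 45, interval 0 to 7.87%), and 1 of 11 kept ones did, in an exon of Rlim. In Rnf145 the recruited 3′UTR peak lay 16 nt from a dismissed one, and in Rnf20 it lay 221 nt away.

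The other long 3′UTRs differed from that of Rlim. Ube2k had 16 Sfpq peaks over 1105 nt of its 4040 nt (27.4%), but no 3′UTR peak in the control Ago2 or Ago2-let-7a list, 2 in the siSfpq Ago2 list and 2 in the recruited list. In Usp31 the 11 Sfpq peaks covered 840 of 6163 nt (13.6%), and 4 siSfpq Ago2 peaks, 3 recruited peaks and a kept Ago2-let-7a peak of 30 nt were listed. In Rnf6 single peaks of all 5 lists fell in the same stretch of the 1010 nt 3′UTR. The 30 nt Ago2-let-7a peaks of Rnf6 and Usp31 are shown whole, in lower case since neither holds a let-7 seed match or one of the Sfpq words on its strand.
Rnf6 peak (chr5:146209460-146209489, minus strand, mm10): tttattcatggaatgtggaaattttatgac
Usp31 peak (chr7:121648115-121648144, minus strand, mm10): ttagttagaacccctcctctcccacaccaa

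**Figure D5:**
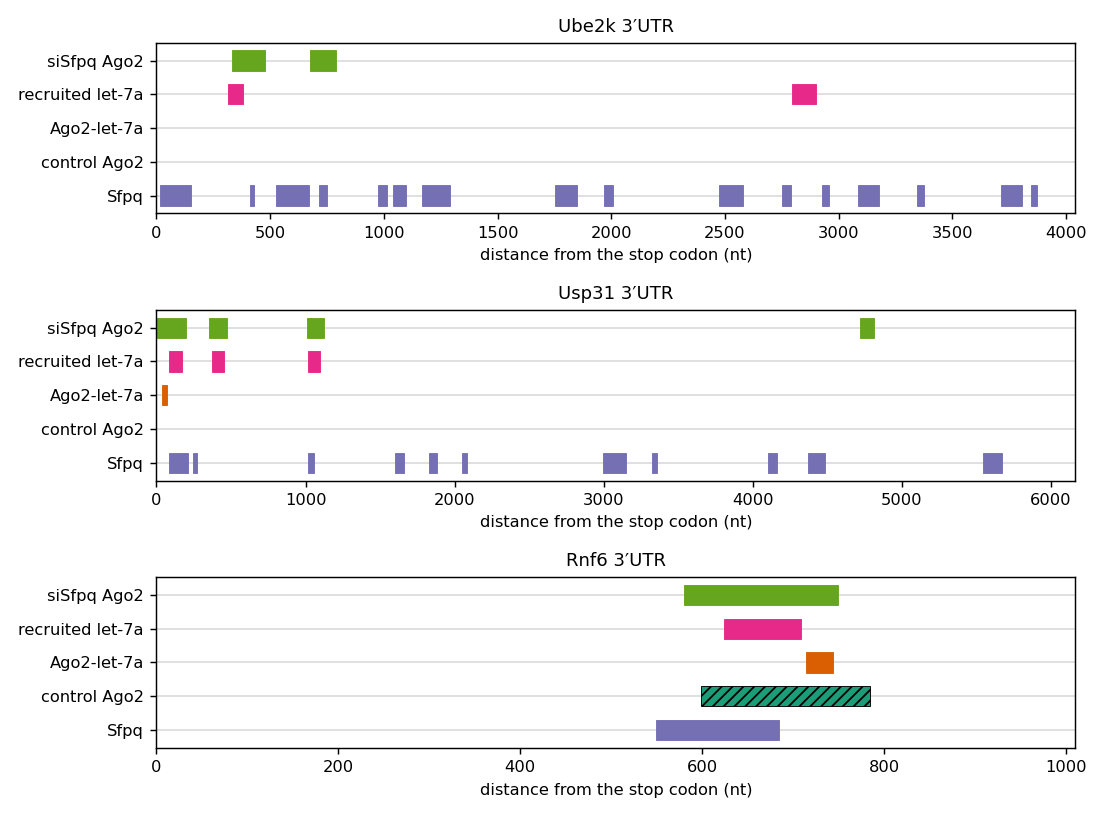
Peaks along the 3′UTRs of Ube2k, Usp31 and Rnf6 by list, with the distance from the stop codon in nt on the horizontal axis and hatched bars with black edges for dismissed peaks. The Ube2k 3′UTR has 16 Sfpq peaks and no peak in the Ago2-let-7a or control Ago2 list, while the peaks of the 5 lists on the Rnf6 3′UTR lie within a single stretch.

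Matches to the let-7 seed were rare in the Ago2-let-7a peaks of these genes, as in the list. The Rnf20 peak was the only one of 18 (5.56%, interval 0.988 to 25.8%), against 30 of 987 3′UTR peaks of the list (3.04%, interval 2.14 to 4.31%). In windows of equal length moved by 200 nt the counts were 0 of 18 and 20 of 987. The Rnf20 peak was dismissed in the very far class, and it also held a 7 nt match to miR-302b, a stem cell miRNA. The 7 nt let-7 match was present in 12 of the 987 peaks (1.22%). In the recruited let-7a list 2 of 72 3′UTR peaks on ubiquitin genes held the 6 nt match (2.78%, interval 0.765 to 9.57%), those of Rnf26 and Ube2b, as did 2 of 72 moved windows, against 1.99% of the list. The Rnf26 peak is labelled 3′UTR, but its match lies just upstream of the longest annotated 3′UTR of the gene.

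Among 61 other ubiquitin genes outside the name rule, 45 had a peak in the 3 lists. They held 347 Sfpq peaks with 64 in 3′UTRs, with 46 on Nedd4 and 43 on Huwe1, both HECT ligases. Of their 20 Ago2-let-7a peaks 16 were dismissed, and of their 8 control Ago2 peaks 3 were. Otud4, a deubiquitinase, had 21 Sfpq peaks with 12 in the 3′UTR and 9 recruited 3′UTR peaks.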

How the data were processed

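The authors trimmed HITS-CLIP reads of P19 cells with cutadapt and mapped them with STAR, then Bowtie2, against mm10 (tools per the submitters' processing notes, versions not given in the sources used here). Replicates were merged and 11 peak lists deposited. Of these, the recruited let-7a, Ago2-let-7a and Sfpq lists hold a dCLIP score, as deposited, and the siSfpq and control Ago2 lists a deposited read count from pyicoclip. Deposited positions, strands, locations and gene symbols were used as given. The lists of dismissed peaks carry no value, and were joined to their full list by position and strand. All dismissed peaks matched. The authors required a Jaccard index of 0.1 between a peak and the reduced region. The header of the siSfpq Ago2 list names control and siSfpq cells, and the study's methods siSfpq cells alone, as read here.

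Distances run from edge to edge to the nearest listed Sfpq peak on either strand. Overlap means at least 1 shared base. Shares have 95% Wilson intervals and differences 95% Newcombe intervals, and no test was run, since members, gene lists and alternatives were chosen with earlier results of these data known. Peaks of 1 gene are not independent, and PCR reads are not independent molecules. Seed words (6 nt) and Sfpq words were read on the peak's strand in RefSeq GRCm38.p6, and peaks with no strand were left out. The longest annotated 3′UTR of each gene gave its length. For Rnf145 and Usp19 the peaks lie in a shorter one. The miRNAs other than let-7a were added after the data had been seen. Code was checked on simulated peaks (Python 3.11.15, pandas 2.3.3, pysam 0.24.0). Named genes were the 3 of each family with most peaks in the 3 lists, Rlim, genes with a dismissed control Ago2 3′UTR peak, with 2 or more dismissed Ago2-let-7a 3′UTR peaks, with a let-7 match in such a peak or with 3′UTR peaks in all 3 lists, and the gene of highest value in each list. Others named were members of a small count or chosen after their values were seen. Results for some genes are not reported here.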

Additional observations from a re-analysis of the deposited data

How the results depend on the processing

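No paired analysis was possible because the authors merged the replicates before calling peaks, so no list keeps a replicate number, and for the same reason no replicate could be left out. Of 48 alternatives, 40 left a share or difference within the 95% interval of its main value, or a count or ratio, which has no interval, within 1.5 times it. None reversed the sign of the dismissed-share difference between peaks near and far from Sfpq, or of the seed-match difference between peaks and moved windows. The order of the shares of genes with a recruited 3′UTR peak did change, as given below. With a minimum score of 15 or of 20 reads, the 3′UTR share on ubiquitin genes was 0% of Ago2-let-7a peaks (0 of 5), 100% of control Ago2 peaks (1 of 1) and 37.1% of Sfpq peaks (52 of 140), and the dismissed share of control Ago2 peaks was 0% (0 of 1). The dismissed share of Ago2-let-7a peaks was 61.1% in 3′UTRs alone. Its difference between peaks near and far from Sfpq was 0 points among intronic peaks, all of which were dismissed. Of genes with a dismissed 3′UTR Ago2-let-7a peak, those with a recruited 3′UTR peak made up 100% in the close class (3 of 3) and 10% with a recruited score of 15 or more (1 of 10). The close class thus lay above the 83.3% of genes with kept 3′UTR peaks alone, whereas the main share of 40% lay below it. No 3′UTR Ago2-let-7a peak passed the stricter score, so seed matches have no value there, and leaving out intergenic peaks changes nothing since these carry no gene symbol. Alternatives by strand of the gene, without Rlim, without the 4 genes with most Sfpq peaks and with coordinates moved by 1 nt were chosen after seeing the data. Depth per library is unknown, and scores and read counts were compared within a list only.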

Other observations

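A further 43 symbols fit the name rule but had peaks in the siSfpq Ago2 or recruited let-7a list alone. Usp24 had 6 siSfpq Ago2 peaks with 2 in the 3′UTR, the most of these genes, and Ube2w had 4 with up to 100 reads.

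The highest read counts of the siSfpq Ago2 list on ubiquitin genes were not in 3′UTRs. An exonic peak of Fbxo10 had 489 reads, a 25 nt intronic peak of Fbxw7 had 283, and an intronic peak on the strand opposite to Usp40 had 231. The Fbxw7 peak began at the same base as the control Ago2 peak of 24 nt with 10 reads that the authors listed as dismissed, and the counts of the lists were not scaled to each other. Peaks on the strand opposite to their gene made up part of the intronic siSfpq Ago2 peaks, with 35 of 58 on the strand of the gene (60.3%, interval 47.5 to 71.9%, against 55.0% in the list), while all 73 stranded 3′UTR peaks were on that strand. The control Ago2 peaks annotated at the transcript end of Rnf167 and Usp16 and the Sfpq peak of Rnf167 with a score of 54 also lay opposite to their gene, so the transcript they belong to is not settled.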
